A study of Homo sapiens with 2 samples.

Results

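Intronic read stacks outside repeats were taken from a genome-wide list of small RNA reads. The list belongs to a study of small RNA recovered with Argonaute proteins from HEK293 cells, a human embryonic kidney line. A stack is a set of overlapping reads at one place on one strand, and the list gives its read count, position, edits and annotation. A stack was a member when it lay off the mitochondrial chromosome, held at least 5 reads, carried fewer than 0.9 edits per read and was annotated as intron on its own strand. It could not also be annotated as exon, and no repeat, tRNA, snoRNA, miRNA, vault RNA or Y RNA could be annotated on that strand. This rule left 8835 of 502547 stacks, or 1.76%. Members were thus chosen by their reads, edits and annotation, and those values are given as descriptions that support nothing further.

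The study immunoprecipitated FLAG-tagged AGO2 or FLAG-tagged AGO3 from the HEK293 T-Rex line, with 1 small RNA library per protein and no library without the tagged protein analysed here. The labels name no further genotype, treatment or time for either group, nor what drives the tagged proteins. Complexes were captured from NP40 lysate on magnetic beads against FLAG, and RNA was freed with proteinase K and phenol. Adapters were ligated to both ends, and the 3′ adapter differed between the AGO2 and AGO3 libraries, so adapter and protein cannot be told apart. The stack list pools libraries without naming them. It is therefore 1 sample: no value below has a replicate, none was tested, and intervals are exact (Clopper-Pearson) 95% intervals that cover counting error only. The list held 68649476 reads, while the separate tables of miRNA precursors held 3485257 counts for AGO2 and 3055417 for AGO3. The stack at mir-301a alone held 420736 reads, whereas the precursor tables gave mir-301a 2283 counts with AGO2 and 2527 with AGO3, so the list is not the sum of those tables.

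Argonaute proteins hold short guide RNAs and bring them to complementary transcripts. Most guides are miRNAs, which Drosha and then Dicer cut from hairpins, and many of these hairpins lie in introns of coding genes. The 2 arms of a hairpin leave reads on either side of a short loop. Mirtrons are short introns that bypass Drosha, because splicing itself sets the ends of the hairpin. Introns are otherwise mostly degraded soon after splicing.

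Members held 624516 reads, which was 0.91% of the list (interval 0.907% to 0.912%). Stacks named for miRNA precursors held 77.0% under the same limits. Exonic stacks outside repeats were more numerous, at 15943, but held 0.622% of all reads, and 4505 intergenic stacks held 0.711%. The median member had 11 reads, with quartiles of 7 and 20 and a range from 5 to 107212. At least 10 reads were found in 4856 members (54.96%), at least 100 in 429 and at least 1000 in 38. The 429 members made up 4.86% of the members and held 78.9% of their reads. The 5 deepest members held 312294 reads, about as many as all the others together. At the read limit, 1242 members had exactly 5 reads and 1910 stacks that met the rest of the rule had 4. A further 1343 stacks with 396935 reads were at or past the edit limit. Just inside that limit were members in VPS13A-AS1 (0.898 edits per read), NMNAT2 (0.898) and DIP2C (0.889), and just outside it were stacks in RP11-15K3.1, LOC100507377 and NLRC5, each at 0.9.

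Annotation was part of the rule, so the intronic label is by construction, and what follows describes the introns. Coding transcripts contained 7783 members (88.1%), of which most lay between coding exons: 6705 members carried that mark, 1739 lay in introns of 5′ untranslated regions and 164 in introns of 3′ untranslated regions, and a member can carry several marks. A gene symbol was given for 8648 members, while 187 lay only in assembled transcript models with TCONS numbers. The label "outside repeats" held for the member's strand only, since 1231 members had a repeat annotated on the other strand. Intron 1 of some transcript model held 3539 members (40.1%), close to the 42.4% among the 97192 single-read intronic stacks selected in the same way.

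Some hosts of members also encode miRNAs, and mature sequences of some of these are printed here as background. Sequences are from RefSeq (GRCh38.p14), in which all 6 miRNA genes looked up were found, with 11 mature sequences. The 7 printed here belong to the miRNA genes beside the deepest members that lie near a named precursor. Capitals mark the seed, bases 2 to 8, which pairs with targets.

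hsa-miR-106b-5p: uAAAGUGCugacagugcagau

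hsa-miR-93-5p: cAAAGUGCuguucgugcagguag

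hsa-miR-25-3p: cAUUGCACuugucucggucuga

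hsa-miR-301a-3p: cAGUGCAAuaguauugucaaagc

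hsa-miR-126-3p: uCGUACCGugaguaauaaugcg

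hsa-miR-126-5p: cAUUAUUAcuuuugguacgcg

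hsa-miR-1243: aACUGGAUcaauuauaggagug

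The first pair shares the seed AAAGUGC, and the other 5 seeds differ from each other. These miRNAs are 21 to 23 bases long. The most common member width was 23 bases, found in 1262 members, and the median was 24 (quartiles 22 and 27, range 15 to 375). Widths of 20 to 24 bases took in 4417 members (49.99%), against 18.01% of exonic, 38.6% of antisense, 36.2% of intergenic and 37.2% of miRNA precursor stacks. Exonic stacks had a median width of 37 bases and miRNA precursor stacks one of 26. Another 976 members (11.05%) were 40 to 110 bases wide and 12 were wider. Width moved with depth: 52.3% of members with 5 to 9 reads were 20 to 24 bases wide, and 30.2% of those with 100 to 999 reads were. The narrow widths were thus less common among the deeper members. Precursor stacks were deeper, with a median of 89.5 reads against 11 for members, so their 37.2% is not a comparison at like depth. A stack's width is that of all its reads together and not the length of a read.

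**Figure D1:**
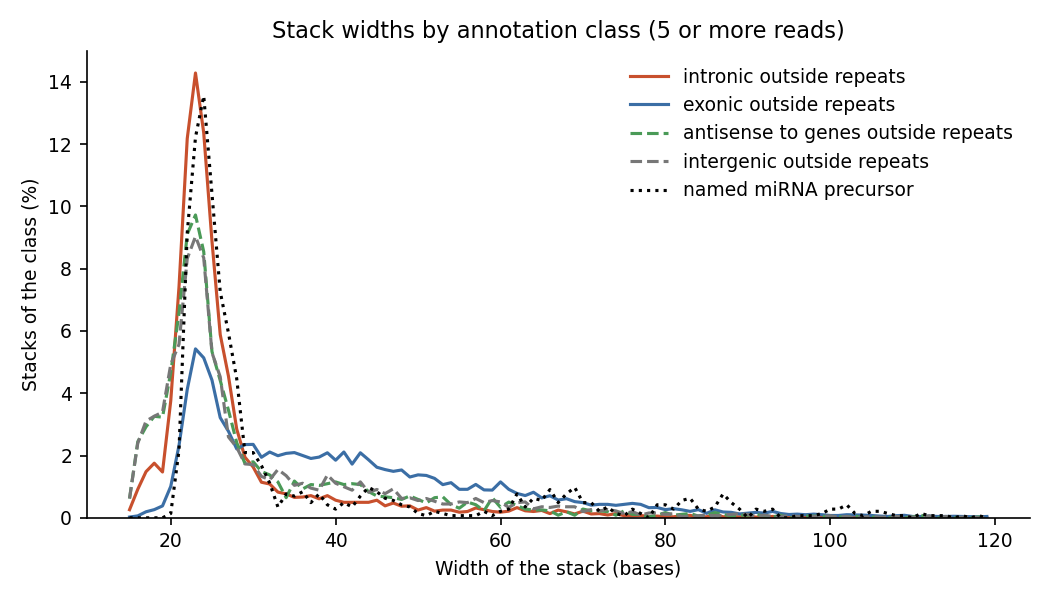
Share of stacks (vertical axis, percent of the class) at each stack width (horizontal axis, bases) for 5 annotation classes with at least 5 reads. The intronic class peaks at 23 bases, and the exonic class has a lower peak and a long shoulder towards wider stacks.

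The list gives each stack an entropy score and, separately, a profile entropy. In ZDHHC14, with 0.883 edits per read, the score was 0.268 and the profile entropy 0.064. In SUPT5H, with 0 edits, they were 0.0683 and 0.068. The score is thus not read here as the spread of read positions alone. Median scores were 0.0903 for members, 0.221 for exonic, 0.142 for intergenic and 0.211 for miRNA precursor stacks. Median profile entropies were 0.056, 0.184, 0.105 and 0.142, in the same order. Members with at least 100 reads had a median score of 0.288, above that of the precursor stacks. The classes were not matched for depth: precursor stacks had a median of 89.5 reads and members 11. Among members with at least 100 reads, the highest scores lay in LARGE (score 2.26, 2746 reads over 129 bases), MAP3K2 (1.98), CHD3 (1.87), CENPO (1.74) and ECH1 with HNRNPL (1.73). LARGE encodes a glycosyltransferase of dystroglycan, and CHD3 a chromatin remodeller. The lowest scores were in NOM1 (188 reads), AGRN (215 reads), METTL17 (103 reads) and ACACB (111 reads). Those 4 members were 20 or 21 bases wide with scores of at most 0.000117, and each had 0 edits.

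Edits, a count the list gives for each stack without defining it further, had a median of 0.111 per read in members. No edit was recorded in 2805 members (31.7%). Exonic stacks had a median of 0.125 edits per read and miRNA precursor stacks one of 0.143. Members of at least 100 reads with the most edits per read lay in NMNAT2 (0.898), ZDHHC14 (0.883), FLJ42392 (0.865), MIPEP (0.863) and a transcript without a standard gene name on chromosome X (0.852), all 22 to 25 bases wide. These stand close to the edit limit of the rule.

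The 5 deepest members were far above the rest. The first, in intron 1 of the transcript model TCONS_00002272, covered 27 bases (hg19 chr1:247532835-247532861, plus strand) with 107212 reads, 17.2% of all member reads. The second lay in CTC-338M12.3 and CTC-338M12.4 (chr5:180692667-180692691, plus strand) with 92859 reads, and the one after it in CTD-2015H3.2 (chr18:1691853-1691880, plus strand) with 52362 reads. These 3 hosts are transcripts without a standard gene name. SYCP2L, a relative of a synaptonemal complex protein, held the next (chr6:10887832-10887859, plus strand, 32350 reads). MOK, a protein kinase gene, came after it (chr14:102706659-102706683, minus strand, 27511 reads). The next deepest had 6661 reads, and every member after it had fewer. Edits per read in the 5 were 0.163, 0.156, 0.149, 0.109 and 0.0684.

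Ranks 6 to 15 ran from 6661 to 3657 reads. Among them were members in SSC5D, a scavenger receptor relative (6661 reads), MICAL3, an actin-oxidising enzyme relative (5840 reads), KLHL4 (5575 reads) and DGKG, a diacylglycerol kinase (4810 reads). SPEF2, a sperm flagellar gene (4378 reads), TCONS_00025230 (4365 reads), ADCK3, a mitochondrial kinase-like gene of coenzyme Q synthesis (4231 reads), TCONS_l2_00004957 (4220 reads) and TCONS_00011641 (3657 reads) followed. TCONS_l2_00004957 had 0.445 edits per read, the most of the 15, and KLHL4 had 0.0328, the fewest. Widths were 21 to 64 bases. No other stack lay within 300 bases on the same strand for 9 of the 15, and 4 of the 15 lay only in TCONS models. Most of these 15 thus had no close neighbour on their strand. The share among all members is not given here, so this is not shown to be particular to the deepest. The level of the host transcripts was not analysed here.

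**Figure D2:**
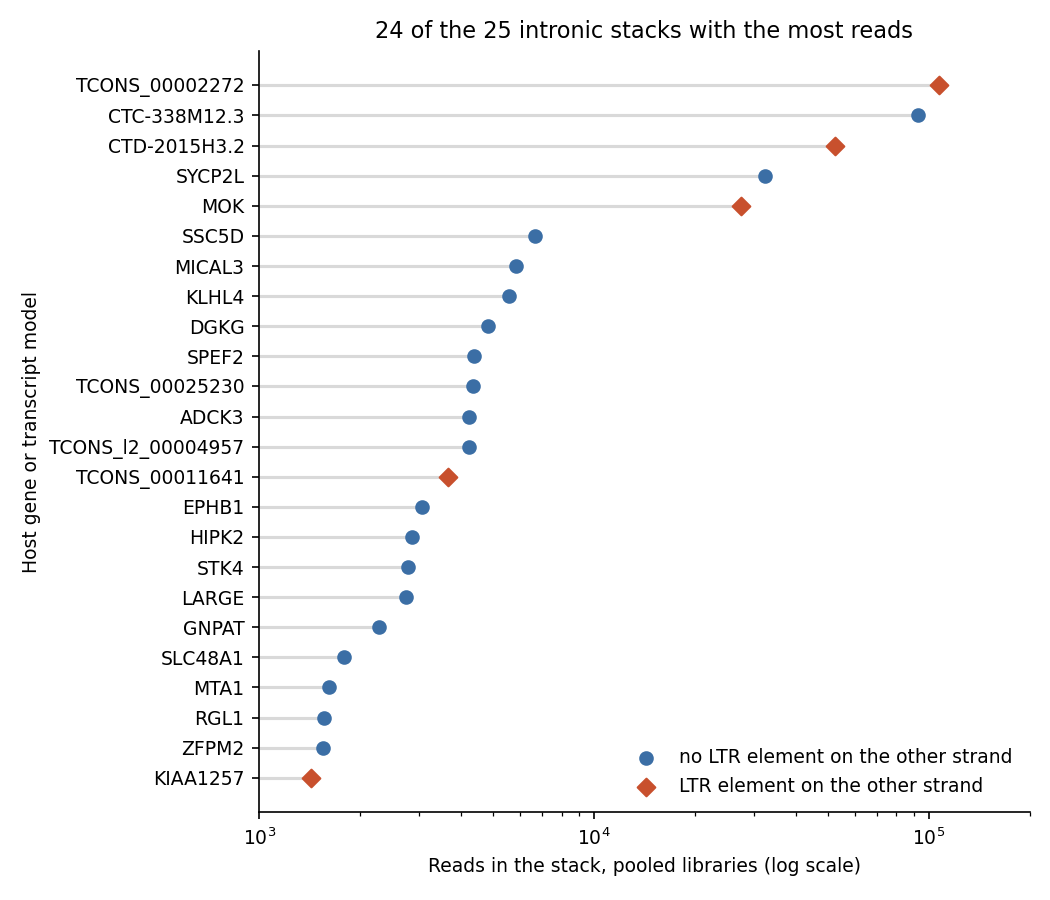
Reads (horizontal axis, log scale, pooled libraries) in 24 of the 25 members with the most reads, each a point named by its host. Diamonds mark members with an LTR element annotated on the other strand, 5 of the 24, and the first 5 members stand apart from the next at 6661 reads.

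Long terminal repeat (LTR) elements, the remains of endogenous retroviruses, were annotated opposite 230 members (2.60%). These held 212626 reads, or 34.0% of member reads, but 3 of them held 187085. Without those 3 the other 227 held 25541 reads, 5.84% of the remaining member reads, and the median over all 230 was 15 reads. The 3 are among the 5 deepest members: TCONS_00002272 lay opposite LTR48B with LTR49-int, CTD-2015H3.2 opposite MER57A-int, and MOK opposite HERVH-int with LTR7. TCONS_00011641 lay opposite Harlequin-int with LTR2. By depth, an LTR element lay opposite 2.73% of single-read intronic stacks, 1.82% of those with 2 to 4 reads, 2.21% of members with 5 to 9 reads, 2.62% with 10 to 99 and 4.604% with 100 to 999. Among the 38 members with at least 1000 reads it was 8 (21.1%, interval 9.55% to 37.3%). The share was thus lower at 2 to 4 reads than at 1 read, and highest, on few members, at 1000 or more. The ERV1 family had 86 such members with 197926 reads (10841 without those 3), ERVL-MaLR had 92 with 7239 and ERVL had 49 with 7347. LINE elements lay opposite 318 members and SINE elements opposite 276, and of the 38 deepest only 1 had each. The members in TCONS_00002272, CTD-2015H3.2, MOK and TCONS_00011641 were all in the mapping class named UNIQ40_K0, which the list does not define. Whether reads at these places could also match other copies of the elements was not tested, since no genome of this build was used here.

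A mark for the 3′ splice site, the end of the intron, was carried by 1585 members in 1295 host symbols. The window behind this mark is not stated in the files. These members were 17.9% of all (interval 17.1% to 18.8%) and held 38570 reads, 6.18% of member reads. The mark was on 2.66% of single-read intronic stacks, 10.6% of those with 2 to 4 reads, 16.1% with 5 to 9, 19.9% with 10 to 99 and 16.4% with 100 to 999. None of the 38 members with at least 1000 reads had it, where the interval reaches 9.25%. On the host's strand the mark was therefore more common among stacks of 2 to 999 reads than among single reads. The depth classes also differed in mapping class: the class named UNIQ10 held 31.7% of single-read intronic stacks and 12.4% of members. Whether this bears on the mark was not tested. Stacks on the strand opposite an intron showed almost none at any depth, 5 of 17594 with a single read and 1 of 2362 with at least 5 reads. Whether the annotation sets the mark by strand is not stated, so the strands were not compared. The 5′ splice site was marked on 90 members (1.02%), against 0.277% of single-read stacks.

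**Figure D3:**
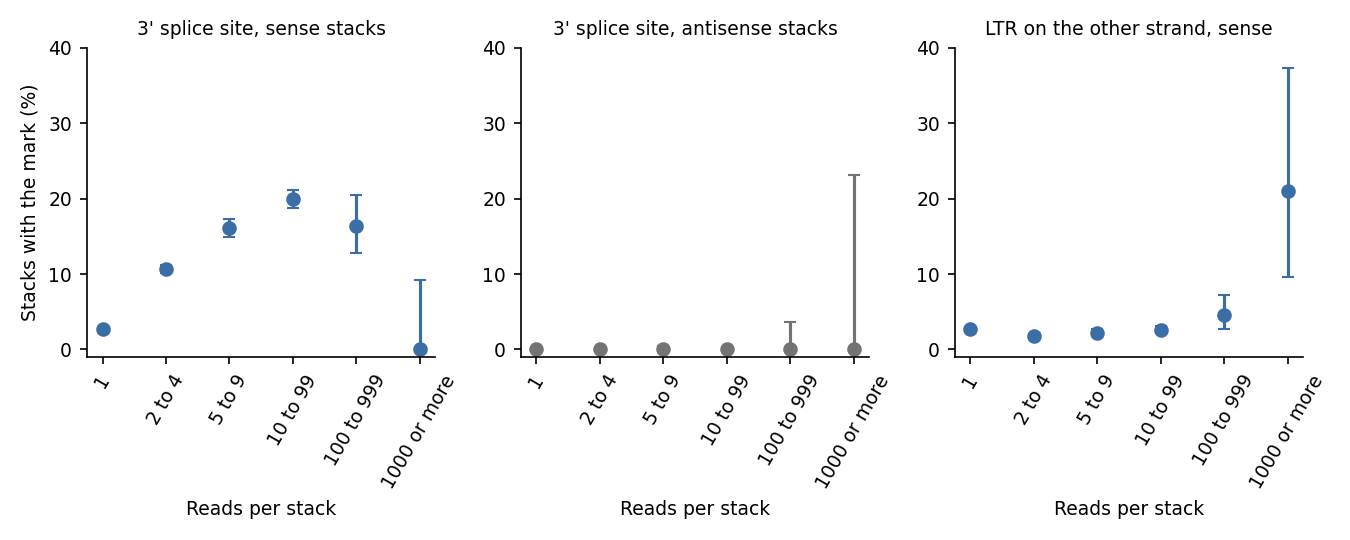
Share of stacks with a mark (vertical axis, percent, with exact 95% intervals) by reads per stack (horizontal axis, 6 depth classes). The 3′ splice site mark climbs from 2.66% at 1 read to 19.9% at 10 to 99 reads in sense stacks, stays near 0 in antisense stacks, and an LTR element on the other strand reaches 21.1% at 1000 or more reads.

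Members at 3′ splice sites carried few edits. Their median was 0 edits per read against 0.131 in the other 7250 members, and 59.1% had no edit against 25.8%. Pooled over reads the values were 0.0479 and 0.147 edits per read. The gap was also present within depth classes: at 100 to 999 reads the median edits per read were 0.0194 in 64 members with the mark and 0.135 in 327 without it. At 5 to 9 reads, 75.8% of marked members had no edit against 40.2% of the others. Marked members were also more often narrow: 63.8% were 20 to 24 bases wide against 47.0%. An entropy score of 0 to 3 decimals was found in 220 (13.9%) against 389 (5.37%). The score is not shown to be independent of edits, so its share is not counted as a separate trait. Members at 5′ splice sites did not share this, with a median of 0.127 edits per read. What the recorded edits consist of is not given in the files, and the source of this difference was not tested.

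The deepest member at a 3′ splice site lay in TRIOBP, an actin-binding protein gene (chr22:38165247-38165268, plus strand, 22 bases), with 739 reads and 2 edits. FASN, fatty acid synthase, followed with 487 reads over 84 bases, then TCF3, a transcription factor (426 reads over 69 bases), MYBBP1A (369 reads over 60 bases) and TBC1D24 (329 reads over 25 bases). Narrow and broad members thus both occurred at the head of this group. All 4 members with low scores named above (NOM1, AGRN, METTL17 and ACACB) carried the 3′ mark, and so did CHD3 and CENPO among the 5 highest. At 5′ splice sites the deepest lay in SLC4A2 (672 reads), ZNF235 (272 reads) and FAM64A (214 reads). These members and the pairs and introns described below were named by rank after their values were seen.

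Both ends of one intron carried members in 30 introns, in a search limited to spans of at most 200 bases. They spanned 71 to 131 bases from the first to the last covered base, with a median of 87. Longer introns could not enter, so the count and the short spans depend on that limit. The stack at the 3′ end was deeper in 23 and the stack at the 5′ end in 7. PLCB3, a phospholipase C gene, had 61 reads at the 5′ end and 218 at the 3′ end of one such intron. SLC6A8, the creatine transporter, had 5 and 207, PIEZO1, a mechanosensitive channel, 18 and 141, and PKN3 39 and 121. The opposite order was most uneven in SLC4A2, an anion exchanger, with 672 reads at the 5′ end and 13 at the 3′ end, and was also found in APBB1 with 125 and 61 and TBL3 with 74 and 14. FLNA, filamin A, was nearly even with 70 and 59. A single stack reached over both ends in 2 further introns, of RECQL4 (109 reads) and TUBGCP6 (33 reads). Whether these introns fold as hairpins was not tested.

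Members at 3′ splice sites were more frequent on chromosome 19, which is dense in genes: 302 of 1585 (19.1%) lay there against 568 of the others (7.83%). Over all members chromosome 19 had 870 (9.85%), the most of any chromosome, and single-read intronic stacks 5.35%. Chromosome 17 had 7.49% of members and 5.71% of single-read stacks, and chromosome 1 had 9.15% and 10.1%.

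Members often came as neighbours. With a gap of 5 to 20 bases between them on one strand, 733 pairs held 1460 members (16.5%). Gaps of 10 to 14 bases occurred in 359 pairs, or 71.8 pairs per base of gap, and gaps of 5 to 9 in 150 pairs. Gaps of 15 to 19 had 42 pairs per base, those of 20 to 29 had 7.8 and those of 30 to 39 had 3.5. The median gap was 13 bases and the median span of both stacks 63 bases (quartiles 59 and 67). The share of stacks in such pairs was 54.9% for miRNA precursor, 9.25% for exonic, 8.60% for antisense and 7.92% for intergenic stacks. Intronic members were thus paired less often than precursor stacks and more often than the other classes outside repeats. A pair needs at least 5 reads in each stack, and the classes were not matched for depth or width. Precursor stacks had a median of 89.5 reads and members 11, and exonic stacks had a median width of 37 bases and members 24.

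**Figure D4:**
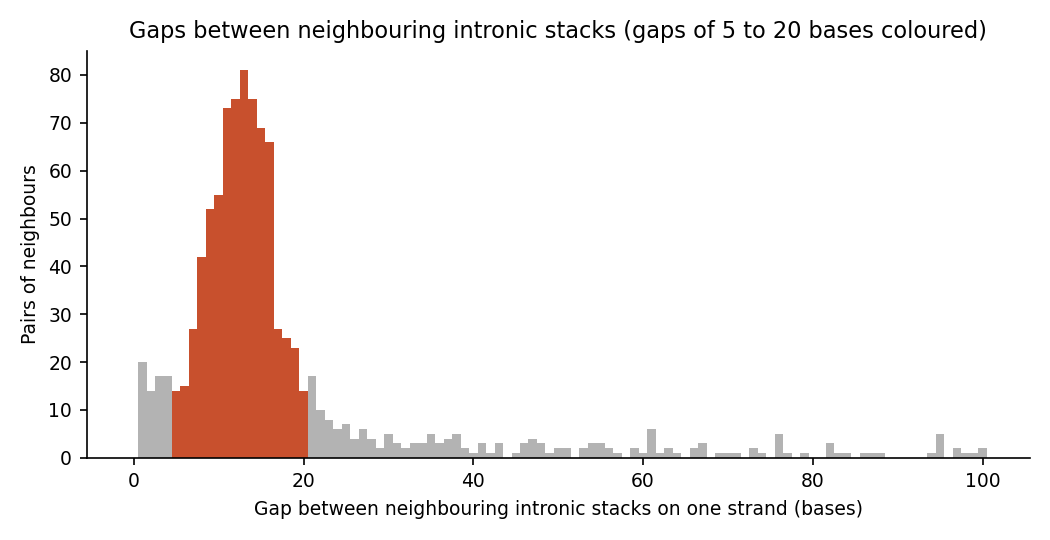
Number of neighbouring pairs of members on one strand (vertical axis) at each gap between them (horizontal axis, bases, up to 100). Gaps of 5 to 20 bases are coloured and hold 733 pairs, with the highest bars around the median of 13 bases.

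The stack on the 3′ side was deeper in 419 of the pairs and that on the 5′ side in 290, with 24 equal. The median ratio of the deeper to the shallower stack was 2.33. Paired members had a median of 15 reads against 10 for the others, and both stacks had at least 100 reads in 16 pairs. MTA1, a subunit of a chromatin-remodelling complex, had the deepest pair by its lower stack. Its stacks lay at chr14:105912943-105912970 with 1222 reads and at chr14:105912983-105913006 with 1618 reads, 12 bases apart on the plus strand. ERICH1-AS1 had 762 reads on the 5′ side and 823 on the 3′ side, and NBEA, a neuronal scaffold gene, 1185 and 737. CTDSPL, a phosphatase gene that hosts a miRNA, had 1140 and 447, SMOC1 had 386 and 646, and GPC6 331 and 274. Other pairs were uneven: MICAL3 had 5840 reads on the 5′ side and 451 on the 3′ side, BAHCC1 1349 and 176, and NECAB2 164 and 1134. Reads were therefore divided nearly evenly in some pairs, while in MICAL3 the deeper stack had 12.9 times the reads of the shallower.

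**Figure D5:**
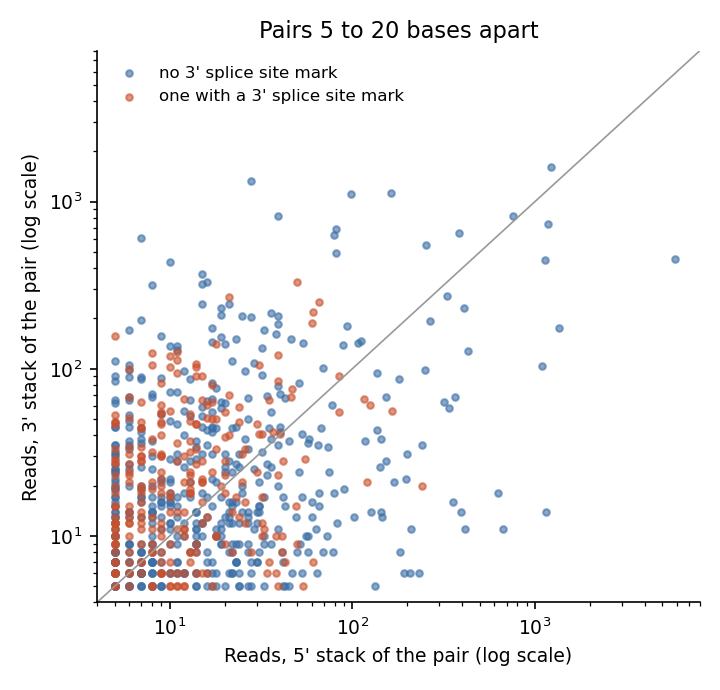
Reads in the 3′ stack (vertical axis, log scale) against reads in the 5′ stack (horizontal axis, log scale) for the 733 pairs with a gap of 5 to 20 bases, where the line marks equal reads. More pairs lie above the line (419) than below it (290), and the 251 pairs with a 3′ splice site mark are drawn in a colour of their own.

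A 3′ splice site mark was present in 251 pairs. It was on 17.2% of paired members and 18.1% of the others, so the mark was about as frequent in pairs as outside them. Pooled edits per read were 0.0461 in paired and 0.0484 in unpaired marked members, and 0.138 and 0.148 in unmarked ones. The low edit rate was thus seen with the mark whether or not a member was paired.

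Few members lay in long runs. Counting as a run at least 8 members with gaps of at most 1000 bases, there were 8 runs with 95 members (1.08%) and 3886 reads. Their median width was 55 bases and their median score 0.271, against 24 and 0.0893 elsewhere. BEND7 had 21 in one run (chr10:13513147-13516502) of 5 to 28 reads each. PCBD2, a cofactor-recycling dehydratase gene, had 18 (chr5:134259177-134263539) with 2075 reads. In PCBD2 the other strand was covered too, with 359 reads opposite the deepest member of 288. FASN had 8 in a run and HOXA3, a homeobox gene, 8. These broad, closely spaced members differed in shape from the narrow majority.

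By host, 5498 symbols had members and 3476 of them had 1. Of the members, 3234 (36.6%) were alone in their host, 203 symbols had at least 5 and 16 had at least 10. BEND7 had the most with 22, then TCONS_l2_00026766 with 21, PIEZO1 and DIP2C with 19 each and PCBD2 with 18. PIEZO1 members had 1206 reads in all, the deepest 411, and 7 of the 19 were at 3′ splice sites. DIP2C had 207 reads over its 19, the deepest 31, and 1 at a 3′ splice site. In FASN 12 of 14 members carried the 3′ mark. By reads the leading hosts were those of the 5 deepest members, and SYCP2L had 11 reads beyond its deepest.

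Gene lists were read as counts, beside a median of 11 reads and 17.9% with a 3′ mark over all members. Members lay in 5498 symbols, but the share of all annotated genes with a member is not given here. Intron length was not taken into account either. How many listed genes had members thus cannot be called high or low. Of 36 listed miRNA hosts, 20 had members, 49 in all, with 4432 reads, a median of 12 and 9 (18.4%) with the 3′ mark. MCM7, a helicase subunit of DNA replication, had the deepest (1388 reads), followed by CTDSPL (1140), EGFL7, a secreted endothelial factor (580) and HUWE1, a ubiquitin ligase (78). Of 10 mirtron hosts, 6 had 14 members with 255 reads, and 6 of the 14 (42.9%, interval 17.7% to 71.1%) carried the 3′ mark. The deepest there were RAI1 (82 reads, no 3′ mark), LRP1 (13 reads, 3′ mark), MGAT4B (11 reads, no 3′ mark) and PLCD3 (11 reads, 3′ mark). Of 26 snoRNA hosts, 16 had 27 members with 368 reads and a median width of 32 bases. HSPA8, a chaperone (71 reads), EEF2, an elongation factor (38), EIF4A1 (17) and RPL10 (17) led these.

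Of 20 genes of the small RNA machinery, 8 had 16 members with 385 reads, 1 of them at a 3′ splice site. TNRC6B, a partner of Argonaute in silencing (143 reads), ADAR, an RNA-editing enzyme (51), TARBP2, a Dicer partner (23) and TNRC6A (16) were the deepest. Of 20 very long genes, 16 had 54 members with 1698 reads, and 0 were at a 3′ splice site, where the interval reaches 6.60%. GPC6 (331 reads), WWOX (82), IMMP2L (71) and CSMD1 (42) were the deepest. The very long genes, whose introns are mostly long, thus had no member with the 3′ mark here, and median reads of the lists ran from 9 to 12.

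Within 1000 bases of a named miRNA precursor stack on the same strand lay 121 members, and within 100 bases 15. The deepest was in MCM7 (chr7:99691315-99691342, minus strand, 28 bases, 1388 reads, 0.140 edits per read). It lay 11 bases from the mir-25 stack of 24200 reads, and by annotation between mir-93 and mir-25, whose main mature sequences are printed above. The separate precursor tables gave mir-25 20428 counts in AGO2 and 13117 in AGO3, mir-93 36053 and 27125, and mir-106b 462397 and 299845. The member in MCM7 was therefore a minor neighbour of strongly loaded precursors. In SKA2, a spindle and kinetochore gene, a member 103 bases wide with 873 reads lay 222 bases from the mir-301a stack. EGFL7 had 580 reads 818 bases from the mir-126 stack, which held 322771. ANK2, an ankyrin, had 315 reads 9 bases from the mir-1243 stack of 364, so here member and named stack were of like depth. AGO2 had 61 and AGO3 56 counts of mir-1243. The member in PCBD2 with 288 reads lay 915 bases from a mir-4461 stack of 19 reads.

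By the annotation of the members, 73 lay within 1000 bases of 62 miRNA genes, 40 upstream and 34 downstream of one, the member in MCM7 being both. Their median was 12 reads. For snoRNA genes the counts were 30 members and 39 genes, with a median of 8.5 reads.

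On the other strand 533 members (6.03%) faced another stack, against 7.34% of exonic, 9.30% of intergenic and 18.4% of antisense stacks. The facing stack had a single read in 252 cases and was deeper than the member in 66. The deepest such members lay in MCM7 (1388 reads facing 21), RP11-258F1.1 (1105 facing 2), EXT2, a heparan sulfate polymerase gene (823 facing 1) and NR6A1, a nuclear receptor (518 facing 2421). The stack facing NR6A1 was that of mir-181a-2, and 14 members faced a named miRNA stack. In 5 cases both strands had at least 100 reads. Since the rule takes members on the host's strand only, these counts do not compare the strands.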

How the data were processed

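Small RNA was measured in 1 AGO2 and 1 AGO3 immunoprecipitation. The authors deposited a list of read stacks which holds, per the file's fields, whole read counts per stack that are not normalized, and an entropy score for each stack that the authors gave without its log base. They also deposited raw counts per miRNA precursor, 1 table per library. The submitters' processing notes name the aligner Bowtie2 2.1.0 and hg19 but do not say for which step. Reads in each stack were used as deposited. The list's field of distinct reads was not used, since its meaning is unclear, and it named no libraries, so depth per library is not known there.

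Stacks of other classes were selected under the same limits, each in 1 class except that stacks antisense to introns are part of those antisense to genes. Single-read stacks served as a background for depth, and under the edit limit only those without an edit could enter. The interval of the share of all reads treats each read as independent, although reads that lack molecular identifiers can be copies of 1 molecule. All other intervals treat each stack as independent, although stacks can be linked, as with the 1460 members in close pairs. Members, gene lists and pair limits were chosen with earlier results of these data known. Members named were the 15 deepest, the 5 leading hosts by members and by reads, the 5 highest and lowest scores and the 5 most edited among those with at least 100 reads, the 5 deepest near a named miRNA stack and opposite another stack, 4 hosts per gene list, and 3 on either side of the edit limit; a few of these members are not reported here. A host with several names is given by 1 or more of them. The annotation does not say how strand was set in the libraries. Counting was tested on simulated stacks. Alternatives covered the read and edit limits, antisense labels, deep members, runs, distances and overlaps. The tools were scipy 1.17.1, pandas 2.3.3, numpy 2.4.6 and matplotlib 3.10.9 under Python 3.11.15.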

Additional observations from a re-analysis of the deposited data

How the results depend on the processing

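The number of members was 4856 with a read minimum of 10, 872 with 50 and 121402 with none, against 8835. Their share of all reads, 0.91%, was 0.872%, 0.761% and 1.11% at those minimums, 0.896% with fewer than 0.5 edits per read, 1.49% with no edit limit and 0.863% without stacks that carry an antisense label. It was 0.754% without the deepest member, 0.455% without the 5 deepest, 0.904% without runs, 0.60% without members that have an LTR element on the other strand, and 0.852% in the mapping class named UNIQ40_K0. The 10 deepest members held 56.97%, 65.2% and 44.9% of member reads at read minimums of 10, 50 and none, 55.4% with fewer than 0.5 edits per read, 60.7% with no edit limit, 57.6% without antisense labels, 15.9% without the 5 deepest and 40.1% without LTR elements on the other strand, against 54.6%. Median width was 25 bases at 50 reads and 22 with no minimum. The median score was 0.116, 0.239 and 0 at minimums of 10, 50 and none, 0.0865 with no edit limit and 0.0877 without antisense labels. Median edits per read were 0.103, 0.120 and 0 at those minimums, 0.103 below 0.5 edits per read and 0.138 with no edit limit. With no read minimum, 97192 of the 121402 stacks had a single read, where the edit limit admits only 0 edits. That median of 0 edits was thus set by the rule. Members alone in their host made up 49.3%, 75.5% and 3.19% at those minimums and 37.9% without antisense labels. The 3′ splice site mark was on 19.5% of members at 10 reads and 20.7% in UNIQ40_K0. Pairs fell to 351 at 10 reads, LTR elements on the other strand to 2.04% in UNIQ40_K0, and members near a named miRNA stack were 15 within 100 bases and 454 within 10000. Widths of 55 to 110 bases held 443 members. Members with an LTR element on the other strand held 34.0% of member reads and 5.84% without the 3 deepest of them. The other 31 values stayed within counting error or 1.5 times. The cause of these shifts was not tested, apart from fewer or more stacks being admitted. Leaving out the 5 deepest, runs, LTR elements or other mapping classes, and all alternatives for splice marks, pairs and LTR elements, were chosen after seeing the data. Hairpin folding under different windows and pairing limits was not run, since no genome of this build was used. No paired analysis was possible because the list is 1 pooled sample.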
